A study of Mus musculus with 8 samples.

Results

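The genes described here are Ucp1, Cidea, Elovl3, Adipoq, Plin1, Fabp4, Cfd, Retn, Pck1 and Pparg, 10 of the 21895 genes of the deposited expression table, which are known from brown or white adipocytes. They were picked by symbol. Ucp1 was picked because it was among the genes with the largest rise in knockout cochleae in an earlier analysis of the same libraries. By the log2 difference computed here it ranked 138 of 14990 genes. Because of this choice the KO and WT values of the 10 genes are given as a description, and nothing is read from how many of them differed. The data came from RNA-seq of mouse cochlea, with 4 wild-type libraries (WT1 to WT4) and 4 miR-29a knockout libraries (KO1 to KO4), and the study asked what loss of miR-29a does to the cochlear transcriptome. Expression was given as FPKM, the number of fragments relative to the length of the transcript and to all mapped fragments.

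The knockout group was miR-29a-/- and the wild-type group miR-29a+/+, from heterozygous matings of 1 strain on a C57BL/6 background, and mice of both sexes were used in the study. The knockout was a germline one, typed in tail DNA, and so not limited to the cochlea. The design text gave an age of 21 days for both groups, whereas the methods gave 2 months, and no treatment was recorded. The labels do not say whether each library came from a separate mouse or from pooled cochleae, so the p-values below measure only the spread between these libraries, which may be technical. Mir29a itself was not analysed here, and the genotype labels were therefore not checked against it. Cochlear genes were present in every library. The FPKM of 15 genes of hair cells, supporting cells, spiral ligament and stria vascularis, among others, summed to 1526 to 2376. Most of each sum was Coch, at 1231 to 1927 FPKM. The hair cell genes Slc26a5 and Myo7a were at 1.42 to 4.04 and 5.02 to 10.3 FPKM, and Oc90 did not exceed 0.284 FPKM. Skeletal muscle, marrow and blood, and bone genes were present as well, in amounts that differed between libraries.

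Adipocytes store triglyceride in lipid droplets. White adipocytes hold 1 large droplet and secrete hormones such as adiponectin and leptin. Brown adipocytes hold many small droplets and many mitochondria, and burn fatty acids to give heat through uncoupling protein 1, the product of Ucp1, which lets protons back across the inner mitochondrial membrane without making ATP. PPARγ, the nuclear receptor encoded by Pparg, drives the differentiation of both types, with the C/EBP family of transcription factors. Adipocytes are not a cell type of the cochlear duct, but fat lies in the marrow of bone and in soft tissue around the temporal bone.

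MiR-29a-3p, the miRNA that the knockout mice lack, is printed to show its seed, bases 2 to 8 from the 5′ end, in capitals. It lies at chr6:31062673-31062694 on the minus strand of GRCm38.p6 and was taken from RefSeq.
mmu-miR-29a-3p: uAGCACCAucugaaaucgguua
The match to this seed, TGGTGCT, was found in 0 of the longest annotated 3′-UTRs of the 10 genes, which ran from 69 bases in Cfd to 1203 bases in Plin1. Of 14824 tested genes with an annotated 3′-UTR, 2292 (15.5%) held it. A 7-base match is a description of the sequence and says nothing of shorter or imperfect matches.

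The promoters of Ucp1, Plin1 and Adipoq are printed because these genes mark heat-producing fat, the lipid droplet of any adipocyte and the adipocyte as a secreting cell. Each window runs from 250 bases before to 50 bases after the start site in RefSeq, on GRCm38.p6, 5′ to 3′ along the gene, and capitals mark the motifs searched. The Ucp1 window is chr8:83290098-83290397 on the plus strand, the Plin1 window chr7:79732727-79733026 on the minus strand and the Adipoq window chr16:23146286-23146585 on the plus strand.
Ucp1: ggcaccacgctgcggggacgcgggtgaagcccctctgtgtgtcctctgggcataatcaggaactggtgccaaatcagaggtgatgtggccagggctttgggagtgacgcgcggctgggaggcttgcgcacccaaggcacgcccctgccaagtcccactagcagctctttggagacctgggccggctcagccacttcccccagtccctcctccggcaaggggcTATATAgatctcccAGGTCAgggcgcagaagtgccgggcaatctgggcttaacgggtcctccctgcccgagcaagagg
Plin1: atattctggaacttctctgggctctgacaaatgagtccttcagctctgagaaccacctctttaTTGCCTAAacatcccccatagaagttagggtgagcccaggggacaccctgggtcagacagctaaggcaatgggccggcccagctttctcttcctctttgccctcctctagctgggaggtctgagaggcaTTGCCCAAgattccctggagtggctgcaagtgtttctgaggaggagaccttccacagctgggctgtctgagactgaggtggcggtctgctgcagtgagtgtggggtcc
Adipoq: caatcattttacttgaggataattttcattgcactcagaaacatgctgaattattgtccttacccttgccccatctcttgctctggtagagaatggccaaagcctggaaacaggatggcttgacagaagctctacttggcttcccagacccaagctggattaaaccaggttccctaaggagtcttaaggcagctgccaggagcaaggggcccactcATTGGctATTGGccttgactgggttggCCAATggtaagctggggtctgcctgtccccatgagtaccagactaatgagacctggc
The motifs searched, on both strands, were AGGTCA (a nuclear receptor half-site), TTNNGCAA (the letters of a C/EBP site) and CCAAT (a box of many promoters). Letters of the TATA box were searched as TATATA and, in a form that can overlap it, as TATAAA. They were chosen after the windows had been looked at. The Ucp1 window held TATATA starting 28 bases and AGGTCA 14 bases before the start site. The Plin1 window held TTNNGCAA on the opposite strand 187 and 58 bases before the start site. In the Adipoq window CCAAT lay 34 and 27 bases before the start site on the opposite strand, printed as ATTGG, and 7 bases before it on the same strand. These short words are common. Among 32851 promoters of the same length, AGGTCA was found in 16.3%, TTNNGCAA in 10.8%, CCAAT in 37.4%, TATATA in 5.67% and TATAAA in 13.6%. Promoters of 7 of the 10 genes were searched, and 5 of these genes held at least 1 of these words. The share of all promoters with at least 1 of them was not computed, and Pparg had more than 1 window. Nothing is therefore read from this count. Those of Cidea, Elovl3 and Fabp4 were not searched, so nothing is said of them.

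The 10 genes were low or intermediate in expression and varied widely between libraries of the same genotype. Their FPKM summed to 14.3 in WT1, 20.8 in WT2, 2.58 in WT3 and 39.5 in WT4, and to 32.1 in KO1, 66.3 in KO2, 67.0 in KO3 and 10.6 in KO4. The 3 highest sums were those of KO2, KO3 and WT4, whereas KO4 lay below WT1, WT2 and WT4. By gene, 8 of the 10 had their lowest value in WT3, counting ties, and all 10 had the lowest KO value in KO4. The highest value lay in KO3 for 7 genes, in KO2 for Ucp1 and Cidea, and in WT4 for Pck1. In bulk tissue, fewer cells of a type and less RNA per cell cannot be told apart.

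**Figure D1:**
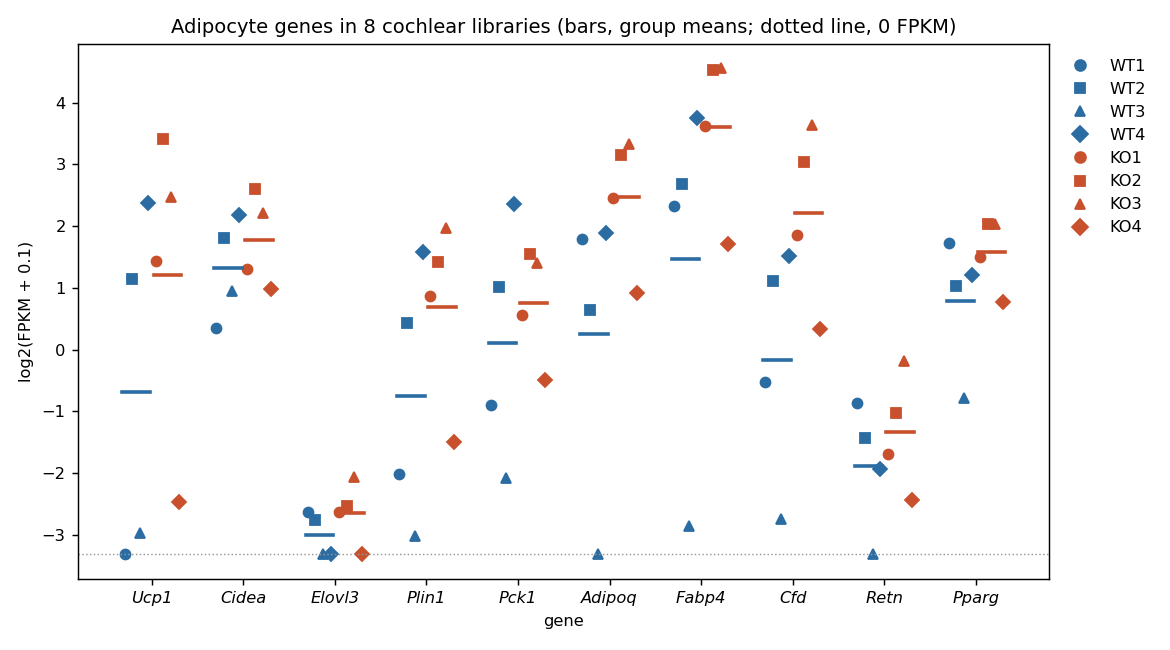
Level of the 10 genes in the 8 cochlear libraries as log2(FPKM + 0.1), with 1 point per library, WT in blue, KO in orange, symbols for replicate numbers, horizontal bars at the group means of this scale and a dotted line at 0 FPKM. The WT and KO points overlap in every gene, WT3 is the lowest point or tied with it in 8 genes, and KO4 (orange diamond) is the lowest KO point throughout.

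Ucp1 is the gene that defines heat-producing adipocytes. Its FPKM was 0 in WT1, 2.11 in WT2, 0.0268 in WT3 and 5.07 in WT4. In the KO libraries it was 2.60 in KO1, 10.6 in KO2, 5.43 in KO3 and 0.0798 in KO4. Ucp1 was therefore at or near 0 in WT1, WT3 and KO4 and at 2.11 FPKM or more in the other 5 libraries, of which 2 were WT. The WT range lay within the KO range except for WT1 and WT3, and no library lay between 0.0798 and 2.11 FPKM. On the log2(FPKM + 0.1) scale the KO mean exceeded the WT mean by 1.91 with a standard error of 1.63 (n = 4 against 4). This difference turned on the libraries included. It was 4.16 in the 6 libraries numbered 1 to 3, a set tried because a figure of the study names 3 libraries per group without saying which, so that it may not be the study's own. Over other sets it was 3.13 without KO4, 1.03 without WT1, and −0.55, below WT, without both WT1 and WT3. The set without WT1 and WT3, used again below, was chosen after the values were seen. It leaves out the WT libraries with the least Ucp1 and keeps KO4, so a fall in the difference was fixed in advance.

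Cidea encodes a lipid droplet protein of brown adipocytes that helps droplets to fuse. Its FPKM was 1.17 in WT1, 3.41 in WT2, 1.82 in WT3 and 4.45 in WT4, against 2.36 in KO1, 5.98 in KO2, 4.52 in KO3 and 1.87 in KO4. WT1, WT3 and KO4, the libraries with little or no Ucp1, also had the 3 lowest values of Cidea, but the gene was detected in all 8 libraries. The KO mean exceeded the WT mean by 0.45 on the log2 scale (SE 0.49), and by −0.22 without WT1 and WT3.

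Elovl3, an elongase of very long chain fatty acids that brown fat makes in the cold, was close to 0 throughout. Its FPKM was 0.0613, 0.0478, 0 and 0 in WT1 to WT4 and 0.0604, 0.0718, 0.138 and 0 in KO1 to KO4. It was listed at 0 in WT4, where Ucp1 was 5.07 FPKM. With a mean of 0.0475 FPKM it lay below the minimum of 0.5 used for testing. Housekeeping genes were at 0 in 0 of the 8 libraries, with the lowest value of 8 such genes at 3.64 FPKM.

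Adipoq encodes adiponectin, a hormone made almost only by adipocytes. Its FPKM was 3.36 in WT1, 1.46 in WT2, 0 in WT3 and 3.58 in WT4. In KO libraries it was 5.41 in KO1, 8.82 in KO2, 9.97 in KO3 and 1.79 in KO4. KO1, KO2 and KO3 lay above every WT library and KO4 lay between WT2 and WT1. WT1, with no Ucp1, had Adipoq close to that of WT4, which had 5.07 FPKM of Ucp1. The log2 difference was 2.22 (SE 1.13), and 1.03 without WT3.

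Plin1, perilipin 1, coats the lipid droplet of adipocytes and controls access of lipases. Its FPKM was 0.147, 1.24, 0.0234 and 2.87 in WT1 to WT4 and 1.72, 2.56, 3.81 and 0.253 in KO1 to KO4. The same 3 libraries were again the 3 lowest, each under 0.3 FPKM. The log2 difference was 1.45 (SE 1.11), 0.69 without WT3 and −0.31 without both WT1 and WT3.

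Fabp4, the adipocyte fatty acid binding protein, which endothelial cells and macrophages also make, had the highest level of the 10 genes in 7 of the 8 libraries. Its FPKM was 4.89, 6.31, 0.0375 and 13.4 in WT1 to WT4 and 12.1, 23.0, 23.4 and 3.15 in KO1 to KO4. KO2 and KO3 lay above every WT library, but WT4 was above KO1 and KO4. The log2 difference of 2.13 (SE 1.36) was 0.68 without WT3.

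Cfd encodes adipsin, the complement factor D that fat secretes. Its FPKM was 0.591, 2.07, 0.0482 and 2.76 in WT1 to WT4 and 3.51, 8.13, 12.4 and 1.16 in KO1 to KO4. KO1, KO2 and KO3 lay above every WT library, and KO4 below WT2 and WT4. The log2 difference was 2.38 (SE 1.03), which was the largest of the 8 genes tested, and 1.52 without WT3.

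Retn, which encodes the adipocyte hormone resistin, was under 1 FPKM in every library. Its FPKM was 0.447, 0.271, 0 and 0.160 in WT1 to WT4 and 0.209, 0.388, 0.775 and 0.0849 in KO1 to KO4. WT1 lay above all KO libraries except KO3. Its mean of 0.292 FPKM was below the minimum for testing.

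Pck1 encodes the cytosolic phosphoenolpyruvate carboxykinase, which in fat supplies glycerol for triglyceride. Its FPKM was 0.437, 1.93, 0.137 and 5.04 in WT1 to WT4 and 1.37, 2.82, 2.56 and 0.607 in KO1 to KO4. The highest library was a WT one. The log2 difference was 0.65 (SE 0.93), −0.07 without WT3 and −0.94 without both WT1 and WT3.

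Pparg was detected in every library. Its FPKM was 3.20, 1.95, 0.480 and 2.20 in WT1 to WT4 and 2.74, 3.99, 4.01 and 1.60 in KO1 to KO4. WT1 lay above KO1 and KO4. The log2 difference was 0.79 (SE 0.54), and 0.27 without WT3.

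Of the 10 genes, 8 reached the minimum of 0.5 FPKM, and all 8 had a log2 difference above 0, with a median of 1.68. Of all 14990 genes tested, 66.5% were above 0, with a median of 0.10, and scaling the libraries by median ratios moved this median to 0.0043 without changing the sign of any of the 8. At the study's threshold of an unadjusted p under 0.05, with any fold change, limma called 1 of the 8, Cfd, higher and 0 lower. Over all tested genes 4.61% were called higher and 0.507% lower. With Benjamini-Hochberg adjustment 0 genes of the whole table were called (0%), against 691 higher and 76 lower by the unadjusted p. The KO and WT values overlapped in all 10 genes, the 8 tested among them. Overlap was also the common case among all tested genes. KO lay wholly above WT in 3.02% of these and wholly below in 0.487%, so nothing is read from the overlap of the 10. Of the genes called by the unadjusted p, 90.1% were higher in KO, a share that was 52.5% after median-ratio scaling and 40.9% after quantile normalization.

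**Figure D2:**
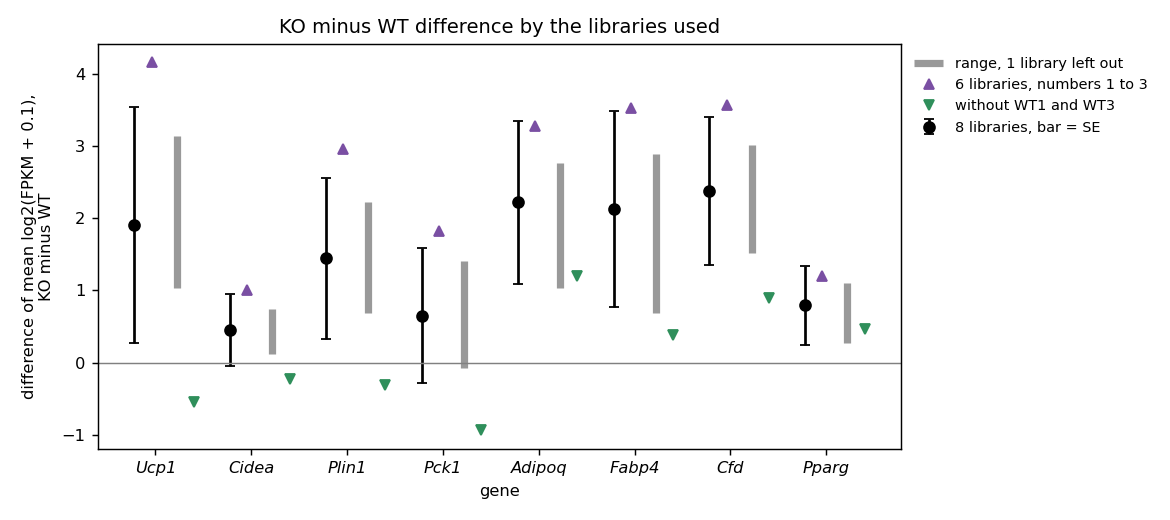
Difference of mean log2(FPKM + 0.1), KO minus WT, of the 8 tested genes: black points with standard errors for all 8 libraries, purple triangles for the 6 libraries numbered 1 to 3, grey bars for the range with 1 library left out in turn, and green triangles without WT1 and WT3. All 8 genes are above 0 with all libraries and with the 6 numbered 1 to 3, and Ucp1, Cidea, Plin1 and Pck1 are below 0 without WT1 and WT3. The set without WT1 and WT3 was chosen after the values were seen.

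The same genes did not follow a single order across libraries. Over the 8 libraries Plin1 had the profile most like that of Ucp1 among 14989 other tested genes, with a Pearson r of 0.964 on the log2 scale. Cidea followed at rank 9 (r = 0.935), Pck1 at rank 19 (r = 0.917) and Cfd at rank 53 (r = 0.872). Fabp4 (r = 0.765), Adipoq (r = 0.657) and Pparg (r = 0.594) were less like Ucp1, at ranks 341, 1084 and 1766. These values describe 8 libraries that fell into 3 with little or no Ucp1 and 5 with Ucp1, so each r mostly says which genes were low in WT1, WT3 and KO4, and no test was made of them. Outside the 10 genes, those most like Ucp1 were Snx15 (r = 0.963), Irf7 (r = 0.953), Cdh24 (r = 0.951), Npr1 (r = 0.947) and Ints13 (r = 0.940), none of which was on the adipocyte lists.

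Adipoq had other neighbours. Pparg was at rank 14 (r = 0.977) and Fabp4 at rank 17 (r = 0.975), whereas Cfd was at rank 507 (r = 0.901), Plin1 at 1369 (r = 0.783), Pck1 at 1641 (r = 0.743) and Cidea at 3252 (r = 0.489). WT1 was 1 library in which these profiles differed. It held 3.36 FPKM of Adipoq, 4.89 of Fabp4 and 3.20 of Pparg but no Ucp1 and only 0.147 FPKM of Plin1. KO4 held 1.79 FPKM of Adipoq, above WT2 at 1.46, with 0.0798 FPKM of Ucp1 and 0.253 of Plin1. No r was computed without these libraries. The other genes most like Adipoq were Fam169b (r = 0.988), Rhd (r = 0.986), Tal1 (r = 0.985), Itgb7 (r = 0.984) and Tap1 (r = 0.983). Rhd and Tal1 are genes of red cell precursors. All values of a library share its depth and its tissue makeup, and 8 points give many high correlations among 14989 genes.

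**Figure D3:**
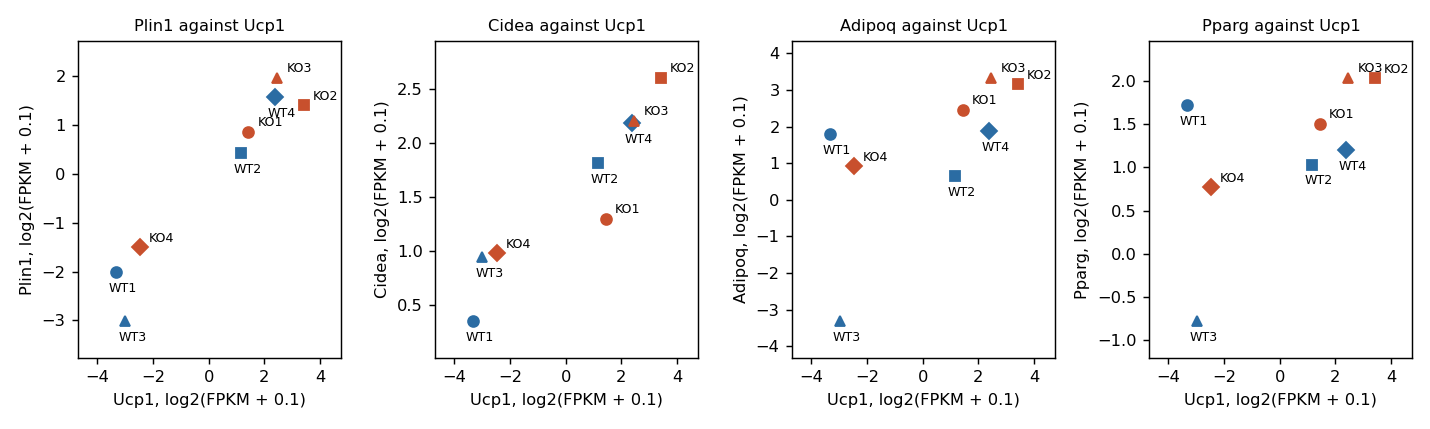
Plin1, Cidea, Adipoq and Pparg against Ucp1 in the 8 libraries, all as log2(FPKM + 0.1), with 1 labelled point per library, WT in blue and KO in orange. WT1, WT3 and KO4 sit apart at the low end of Ucp1, and there WT1 is low in Plin1 and Cidea but not in Adipoq or Pparg.

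The level of other adipocyte genes was examined in lists by function. Of 23 general adipocyte genes, 21 were tested, of which 20 were above 0 and 5 passed the unadjusted threshold, all higher in KO (Cebpd, Lpl, Cd36, Cebpa and Abhd5), with a list median of 0.45 against 0.10 for all genes. The 5 called were 23.8% of those tested, beside 4.61% of all genes, and fell to 2 without WT2 and to 2 without KO3. The 20 above 0 were 95.2%, beside 66.5%. Cebpd, an early factor of adipocyte differentiation that many other cells use, had 3.88, 3.28, 2.52 and 3.40 FPKM in WT1 to WT4 and 5.74, 5.63, 7.87 and 4.51 in KO1 to KO4. Every KO library lay above every WT library, with a log2 difference of 0.83 (SE 0.22, limma adjusted p = 0.947). Lpl, the lipoprotein lipase that frees fatty acids for uptake, had 9.17, 5.63, 2.41 and 8.30 FPKM in WT1 to WT4 and 13.0, 19.5, 21.4 and 10.1 in KO1 to KO4. Its groups did not overlap either, with a log2 difference of 1.41 (SE 0.43, limma adjusted p = 0.947). Cd36, a fatty acid transporter also made by endothelial cells and macrophages, had a log2 difference of 1.34 (SE 0.50, limma adjusted p = 0.947), but KO4 at 4.67 FPKM lay below WT1 and WT4, and the call was lost without WT2, KO2 or KO3 and with a replicate block. Lpl and Cebpd passed the unadjusted threshold in each of the alternatives tried, with and without WT1 and WT3. Cidec, a droplet protein of white fat, had 0.637, 0.724, 0 and 3.27 FPKM in WT1 to WT4 and 2.05, 3.83, 2.41 and 0.426 in KO1 to KO4, with the lowest values in WT3 and KO4.

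Brown adipocyte genes other than Ucp1 stood close to the median of all genes. Of 19 brown adipocyte and thermogenic genes, 16 were tested and 11 were above 0, with a median of 0.12 against 0.10 for all genes and 68.8% above 0 against 66.5%. Cox8b, a cytochrome oxidase subunit of brown fat and muscle, was the 1 gene called, with 4.99, 13.6, 11.5 and 12.8 FPKM in WT1 to WT4 and 14.1, 20.6, 26.8 and 13.4 in KO1 to KO4. Its log2 difference was 0.83 (SE 0.36, limma adjusted p = 0.947). The 1 called was 6.25% of the brown list tested, beside 4.61% of all genes called higher. The call was lost without WT1, WT3, KO2 or KO3 in turn, without a variance trend, and without both WT1 and WT3, where the difference was 0.44. KO4 was below WT2, and KO3, the highest library, was also the highest in 14 of 15 skeletal muscle genes. Dio2, the deiodinase that activates thyroid hormone in brown fat and in the cochlea, had a difference of 0.34 (SE 0.24, limma adjusted p = 0.947) and Gk, glycerol kinase, one of 0.17. Adrb3, the adrenergic receptor of fat, had 0.0456, 0.436, 0 and 0.448 FPKM in WT1 to WT4 and 0.160, 0.273, 0.821 and 0.118 in KO1 to KO4. It too was lowest in WT1, WT3 and KO4, but its mean of 0.288 FPKM was below the minimum for testing. Otop1, also on the brown list, did not share this order. It was lowest in WT1 at 1.02 FPKM but highest in WT3 at 6.09, followed by KO4 at 5.10. Zic1, a gene of brown fat that neurons of the cerebellum and meninges also use, was highest in WT2 at 43.9 FPKM and KO4 at 25.9 FPKM, and lowest in WT1 at 1.82 FPKM.

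Most of the listed white adipocyte genes were at or near 0, which is not read as an absence of white adipocytes. Of the 8 listed, Hoxc8, Hoxc9 and Hoxc10 were at 0 in all 8 libraries, and Lep, the gene of the white fat hormone leptin, did not exceed 0.0997 FPKM. Whether fat near the cochlea makes these Hoxc genes was not tested. The 3 genes tested were Slc7a10 (log2 difference −0.25), Nnat (−0.08) and Agt (−0.02), none of them called, and each is also expressed in nervous tissue. Slc7a10, at 0.226 FPKM in WT1 and 2.50 to 7.50 in the other WT libraries, turned on single libraries. Its difference was −1.21, and called lower, without WT1, −1.64 without WT1 and WT3, and 0.30, not called, without WT2. The median of −0.08 stood against 0.10 for all genes.

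The lists of fat synthesis and fat burning held 1 called gene between them. Of 16 lipogenesis genes tested, Agpat2, which makes the phosphatidic acid used for triglyceride, was the 1 gene called, with a log2 difference of 0.61 (SE 0.25, limma adjusted p = 0.947). This was 6.25% of the list beside 4.61% of all genes, and the call was lost without WT1, WT3, KO2 or KO3 in turn, without both WT1 and WT3, and with a replicate block. Dgat2, which adds the last fatty acid to triglyceride, had a difference of 0.81 and Thrsp, a gene induced by thyroid hormone and feeding, one of 0.75, and neither was called. The list median was 0.15. Of 13 fatty acid oxidation genes 0 were called and 6 were above 0, with a median of −0.03, and 1 was called with median-ratio scaling or quantile normalization. The 3 with the smallest p were Cpt1a (−0.19), Slc25a20 (0.23) and Ech1 (−0.15). Of 9 genes of adipocyte precursors, Ccn5, a secreted matricellular protein, was the 1 called, with 1.58, 1.39, 2.84 and 1.50 FPKM in WT1 to WT4 and 4.91, 5.24, 2.41 and 2.15 in KO1 to KO4 (log2 difference 0.92, SE 0.37, limma adjusted p = 0.947). WT3 lay above KO3 and KO4, and the call was lost without WT1, WT2, WT4, KO1 or KO2 in turn, with either other scaling and with a replicate block. The 1 called was 11.1% of the precursor genes, beside 4.61% of all genes called higher. The number of precursor genes called was 3 without WT1, where 1810 of 15019 tested genes were higher and 1112 lower. It was 4 without both WT1 and WT3, where 1381 of 15055 were higher and 1049 lower. Dpp4, a surface peptidase of fibroblastic precursors, lay higher in each KO library than in each WT library without being called, at 8.41 to 10.3 FPKM in WT and 10.4 to 12.8 in KO. Pi16, of the same cells, had a difference of 1.19 and was not called. Together the 6 lists held 88 genes other than the 10 described above, of which 78 were tested, 8 were called higher and 0 lower, and 55 were above 0, with a median of 0.16. The share called higher was 10.3% beside 4.61% of all genes, and the share above 0 was 70.5% beside 66.5%.

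Relatives with other tissue ranges were examined for the 10 genes except Adipoq and Cfd, and many of these relatives were expressed in all 8 libraries. Ucp2, an uncoupling protein of immune and many other cells, ran from 14.4 FPKM in WT3 to 40.3 in KO3, and Ucp3, that of muscle, from 0.261 in WT1 to 1.45 in KO3. The log2 difference of Ucp3 was 0.98 (SE 0.41, limma adjusted p = 0.947) and it was called by the unadjusted p, a call lost on leaving out any 1 library except WT4 and KO4, while KO4 at 0.510 FPKM lay below WT4 at 0.728. Plin2 and Plin3, the droplet coats of most cells, were detected in all libraries at higher levels than Plin1, at 7.02 to 16.2 and 9.37 to 12.9 FPKM. Plin4 ran from 2.74 to 8.32 FPKM and Plin5 from 0.0702 to 0.896. Fabp3, Fabp5 and Fabp7, the binding proteins of muscle, epidermis and glia, were present at 18.0 to 40.0, 6.20 to 20.1 and 7.80 to 37.4 FPKM, so that WT3, with 0.0375 FPKM of Fabp4, held the other 3. Fabp1, Fabp2 and Fabp6, of liver and gut, were at 0 in all 8 libraries. Elovl5 was present at 27.6 to 60.5 FPKM where Elovl3 was near 0, and the mitochondrial Pck2 at 7.28 to 12.9 FPKM. Ppard ran from 5.90 to 7.04 FPKM and Ppara from 1.03 to 4.40, so WT3, which had 0.480 FPKM of Pparg, was not low in every receptor of the family. Retnlg, the resistin relative of neutrophils, was highest in WT1 at 539 FPKM and lowest in WT3 at 1.95 FPKM.

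**Figure D4:**
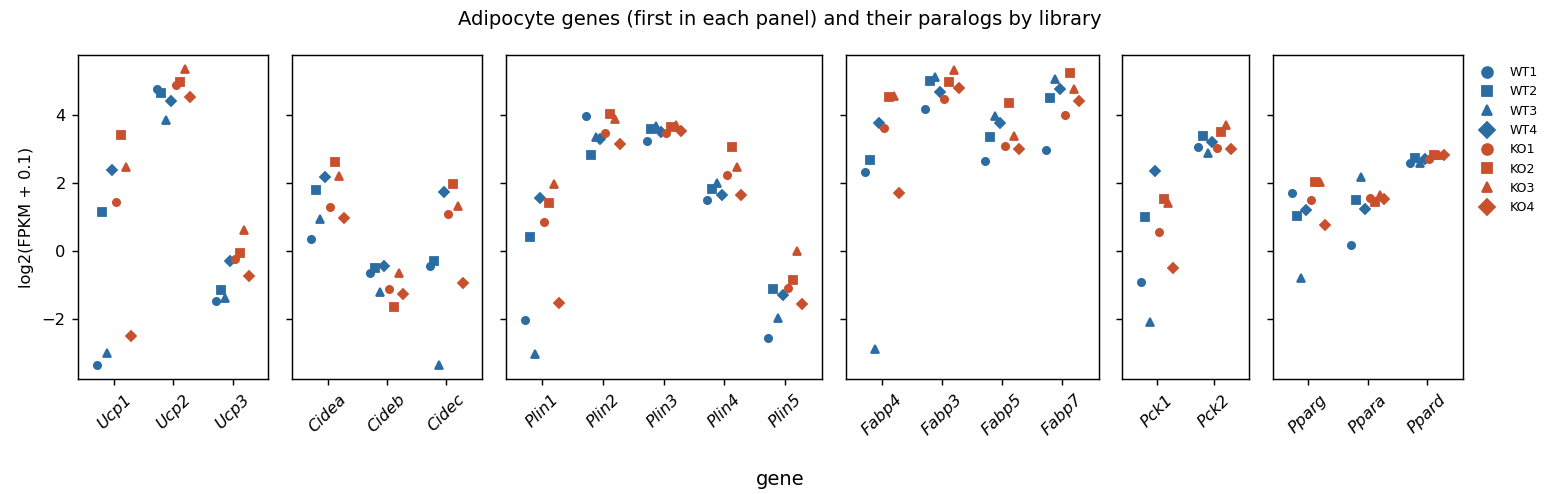
Level of 6 of the adipocyte genes (first in each panel) and of relatives from their families in the 8 libraries as log2(FPKM + 0.1), with 1 point per library, WT in blue and KO in orange. Ucp1, Plin1, Fabp4, Pck1 and Pparg have WT3 far below WT4, whereas the 8 points of Plin3, Pck2 and Ppard lie close together.

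Markers of the tissues that surround the cochlea also differed between these libraries. Marrow and blood genes summed to 14479, 2344, 364 and 3277 FPKM in WT1 to WT4 and to 7655, 7968, 12868 and 4776 in KO1 to KO4. All 13 of them were lowest in WT3, where Adipoq and Retn were at 0 and Fabp4 was 0.0375 FPKM, and 7 of 13 were highest in WT1, where Ucp1 was at 0. Bone genes summed to 118 FPKM in WT3 and to 513 to 814 in the other WT libraries, against 778 to 1015 in KO, and all 10 were lowest in WT3. Of the bone genes Sost, Col1a1 and Ctsk were called higher (30%), and of the marrow and blood genes Vpreb1 and Igll1 (15.4%). Over all tested genes 4.61% were called higher and 0.507% lower. The bone and the marrow and blood counts turned on WT1. Without it 13 of the 13 marrow and blood genes and 7 of the 10 bone genes were called, beside 1810 of 15019 tested genes higher and 1112 lower. Without both WT1 and WT3 the counts were 12 and 6, beside 1381 of 15055 tested genes higher and 1049 lower. The bone count was 1 without KO3. Skeletal muscle genes summed to 49.9 to 203 FPKM in WT and to 88.3 to 643 in KO, with 14 of 15 highest in KO3, where 7 of the 10 adipocyte genes peaked as well. The sums in the other libraries are mostly Pvalb, which nerve and hair cells also make. Acta1, the actin of skeletal muscle, was 142 FPKM in KO3, 10.2 in KO4 and at most 2.18 in each other library, including KO2, which had the highest Ucp1. Of 13 muscle genes tested Mb and Mylpf were called higher, a count that ranged from 0, without WT2, WT3 or KO4, to 9 without KO2. Over all genes 323 of 14976 were called higher and 54 lower without KO2. Genes of marrow stroma, which includes cells that can form fat, summed to 54.8 to 69.4 FPKM in WT and to 67.3 to 103 in KO, and Cxcl12, its chemokine, was the 1 of 5 called (log2 difference 1.53, SE 0.60, limma adjusted p = 0.947). The Cxcl12 call was lost without WT2, WT3, KO1, KO2 or KO3 in turn and with median-ratio scaling. Of 14 cochlear genes tested 1 was called, Tectb, which was lower, and 4 were called without WT1. The part of marrow, bone, muscle or dissected fat in the values of the 10 genes was not tested.

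**Figure D5:**
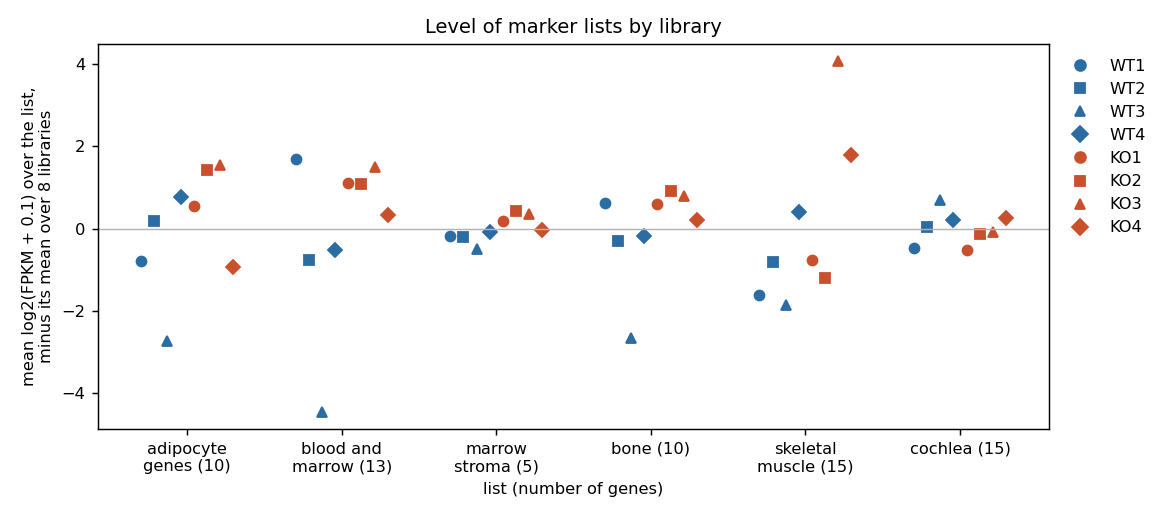
Mean of log2(FPKM + 0.1) over the 10 adipocyte genes and over lists of blood and marrow, marrow stroma, bone, skeletal muscle and cochlear genes in each library, after subtracting each list's mean over the 8 libraries, with WT in blue and KO in orange. The adipocyte, blood and marrow, and bone genes are lowest in WT3, whereas the cochlear genes are highest there. WT1 is highest for blood and marrow but below the list mean for the adipocyte genes, and muscle genes stand out in KO3.

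FPKM carries no counts, so the counting error of low values such as 0.0268 FPKM of Ucp1 could not be given. The libraries differed little in depth, which was 0.927 to 1.14 times the median library as estimated from the spacing of low values, and their FPKM summed to 249221 to 288695. In WT1 the 10 most abundant genes took 17.6% of all FPKM, against 8.50 to 10.9% in the other libraries, with Gm8797 alone at 7.09%. Little sequence was shared exactly with other annotated transcripts. Of the 50-base words of Plin1 0.172%, and none of those of the other 9 genes, occurred in transcripts of another gene. Copies with mismatches or outside annotated transcripts were not searched. The coordinates of all 10 genes in the file were those of GENCODE M21 on GRCm38, where each is a protein-coding gene. Ucp1 lies on chromosome 8 from 83290352 to 83298452 on the plus strand, Adipoq on chromosome 16 from 23146536 to 23158028 on the plus strand and Plin1 on chromosome 7 from 79720218 to 79732903 on the minus strand.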

How the data were processed

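RNA-seq of whole cochlea was analysed in 4 WT and 4 KO libraries, grouped by genotype label. Ribosomal RNA was depleted before stranded library preparation, Hisat2 was the authors' aligner, and they deposited 1 FPKM value per gene and library. These deposited values were used as given. The submitters' processing notes name mm9, but the coordinates in the file were those of GRCm38. Of 21895 gene identifiers, 21760 were in GENCODE M21, 19771 with the same coordinates. There were 0 unused columns of library values.

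The log2 of FPKM plus 0.1 was fitted with limma 3.58.1 in R 4.3.3, with genotype only and a mean-variance trend, over 14990 genes with a mean of at least 0.5 FPKM. Tests were two-sided, with an unadjusted p under 0.05 (the study's threshold) and Benjamini-Hochberg adjustment. Adding 0.1 understates the fold of low genes. The fit was tested on simulated data. The study itself tested counts, which were not used here.

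The 10 genes, the gene lists and the tests were chosen with earlier results of these data known. Beyond the 10 genes and their relatives, those named were the 3 of each adipocyte list with the smallest p, the 5 most like Ucp1 or Adipoq by Pearson r, and the 2 most abundant of each other list where a value is given. Genes named because a count was small, and Cidec, Adrb3, Otop1, Zic1, Lep and the Hoxc genes, were chosen after their values were seen. A correlation of Ucp1 with the other genes was planned, but libraries fell into groups of 3 and 5 by Ucp1, each under the 6 needed, so no test of it was made. Figures were drawn with matplotlib 3.10.9. The alternatives tried were other pseudocounts, filters, scalings and variances, a replicate block, the 6 libraries numbered 1 to 3 and leaving out libraries.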

Additional observations from a re-analysis of the deposited data

Results flagged for a closer look

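In each group of 4 libraries the highest and lowest values were compared with the rest by Dixon's ratio of gap to range. Of 42 groups examined 1 passed its 95% critical value, where chance gives about 1 in 20. It was the mean log2(FPKM + 0.1) of the fatty acid oxidation genes in WT, in which WT1 lay apart at 3.89 against 4.36 to 4.43 in the other WT libraries, with a ratio of 0.873. WT1 was also the library with no Ucp1, the highest marrow and blood genes and 7.09% of its FPKM in Gm8797.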

How the results depend on the processing

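The 691 genes higher and 76 lower at an unadjusted p became 402 and 363 with median-ratio scaling and 378 and 547 with quantile normalization. Without a filter on low values 148 were lower and 3 passed the adjusted threshold, in place of 0. In the 6 libraries numbered 1 to 3, 42 were lower and 1 passed adjustment, and without WT1 and WT3, a choice made after seeing the data, 1381 were higher and 1049 lower. Leaving out 1 library in turn gave 292 to 1810 higher, 35 to 1112 lower and 0 to 1 after adjustment, with 1810 and 1112 without WT1, 323 higher without KO2, 292 higher without KO3 and 35 lower without WT2.

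The number of the 10 genes called, 1 with all libraries, was 2 with a pseudocount of 1 and 5 in the 6 libraries numbered 1 to 3. Of all tested genes, 734 of 14990 were higher and 78 lower with a pseudocount of 1. In the 6 libraries 632 of 14956 were higher and 42 lower. The number of the 10 genes called was 0 without a filter, with median-ratio scaling, without a variance trend, with a replicate block and without WT1 and WT3. It ranged from 0 to 2 with 1 library left out. The 8 adipocyte and lipid genes called higher ranged from 3 to 10, and the 0 called lower from 0 to 4, with 1 library left out; lower calls were 2 with median-ratio scaling, 3 with quantile normalization and 4 without WT1 and WT3. The causes were not tested.

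Replicate numbers were not shown to pair the libraries, since the deviations of same-numbered libraries correlated at 0.419, −0.24, −0.17 and 0.21. With a replicate block 738 genes were higher, 100 lower and 0 passed adjustment. FPKM gives no counts, so the depth behind values near 0 is unknown beyond the libraries' relative depth.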
